A study of Dichomitus squalens with 6 samples.

Results

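Scaffold 77 of the genome assembly of Dichomitus squalens strain CBS 464.89 carries 58 of the 15295 gene models in the catalog that the authors deposited. The 53 models described here were chosen by their level: an RSEM expected count, an estimated number of reads, of at least 10 in 2 or more of the 6 libraries. Across all scaffolds 12699 models met that rule. The rule used the level of a gene and not its difference between sugars, but a gene can meet it through the sugar where it is high. Of the 53, 44 reached 10 counts in all 6 libraries, 5 reached it in no L-rhamnose library, 1 in no xylose library and 0 through a single sugar alone. Models are numbered 1 to 58 in order of start, and positions are those of the deposited catalog.

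Dichomitus squalens is a white-rot basidiomycete, a fungus that degrades wood, and the strain is a monokaryon. Mycelium grew for 5 days at 28 °C on agar plates with L-rhamnose, xylose or cellobiose, each at 25 mM, and each sugar has 2 libraries of total RNA. All plates shared a low-nitrogen base with asparagine and succinate, so the sugar was not the only carbon in any group, and all libraries come from 1 wild-type strain. The labels do not say whether replicates came from separate plates, so the p-values reflect differences among these samples alone, possibly technical ones. Plates with the base alone were not analysed here. The series was designed to look for candidate regulators of plant biomass breakdown.

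Fungi sense small sugars released from the plant cell wall and switch on the genes for the matching enzymes and transporters. In ascomycetes such as Aspergillus, xylose acts through the factor XlnR and L-rhamnose through the factor RhaR, and each sugar induces enzymes for the polymer it comes from, xylan or the pectin rhamnogalacturonan. Cellobiose is the disaccharide of cellulose. In fungi, genes of a common pathway can also lie side by side on a chromosome. The deposited files pair the gene models with positions and numeric identifiers but not with product names, so no function is given to any model below and the mycelium label could not be checked against marker genes.

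Libraries held between 7306517 and 8126006 expected counts, of which scaffold 77 took 0.373% and 0.358% on L-rhamnose, 0.381% and 0.393% on xylose, and 0.329% and 0.354% on cellobiose. The first model starts at 758 and the last ends at 149989, on a scaffold of 152857 bases. The 53 models lie 24 on the plus and 29 on the minus strand. Their coding lengths run from 183 to 4842 bases with a median of 1056, against 1053 for the 12699 models under the same rule, and their median exon number is 4, against 5. Adjacent models stand farther apart here, with a median gap of 841 bases, against 467 over all scaffolds. Of 57 adjacent pairs, 33 point the same way, 12 diverge and 12 converge. Spans of 3 pairs overlap, models 15 and 16, 22 and 23, and 46 and 47, each on opposite strands, but their coding parts do not, and the deposited lengths count coding parts alone. Models 40, 57 and 58 had counts that were not whole and so share reads with similar genes, which makes their levels uncertain.

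Levels were moderate. The median over the 53 models was 14.4 FPKM, which is the authors' read count scaled by coding length and library depth, against 24.9 FPKM for the 12699 models. Below 10 FPKM lay 21 models, between 10 and 100 FPKM lay 27, and above 100 FPKM lay 5. By sugar, the median was 12.6 FPKM on L-rhamnose, 17.2 on xylose and 11.9 on cellobiose, against 24.4, 22.3 and 24.1 FPKM for the 12699 models in the same order of sugars. The scaffold thus had its highest median FPKM on xylose, where the 12699 models had their lowest. That low depended on the scaling, since FPKM allows for coding length and depth alone. Over the 12667 genes tested, the median log2 fold change of xylose against cellobiose was -0.117 with library size only. It was 0.0065 in edgeR with TMM factors, a further scaling between libraries. The 53 models had medians of 0.261 and 0.383 in these fits. By mean FPKM, 19 of the 53 models were highest on L-rhamnose, 26 on xylose and 8 on cellobiose, while 25 were lowest on L-rhamnose and 14 each on xylose and cellobiose. These counts depend on the same scaling, and the matching shares of the 12699 models were not counted.

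**Figure D1:**
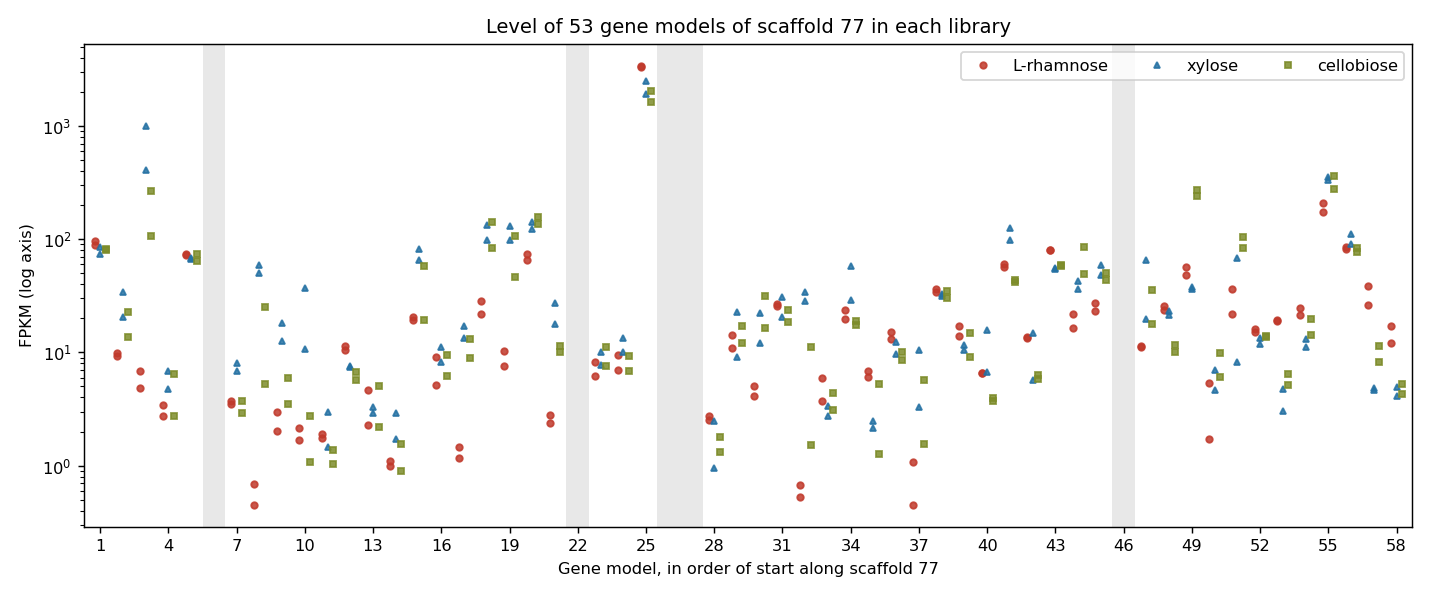
Level of the 53 gene models in FPKM on a log axis, in order of start along the scaffold, with 1 point per library (circles L-rhamnose, triangles xylose, squares cellobiose). Grey bands mark the 5 models under the count rule, model 25 stands highest on every sugar, and models 8 and 32 lie below 1 FPKM on L-rhamnose.

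The 5 models with the highest mean FPKM did not share a profile. Model 25, at 58663 to 59728 on the minus strand with 4 exons and a coding length of 615 bases, stood at 3400 and 3357 FPKM on L-rhamnose, 1906 and 2484 on xylose, and 2030 and 1627 on cellobiose. It alone held 55.0% and 56.6% of the scaffold's counts on L-rhamnose, 30.0% and 38.0% on xylose, and 37.1% and 27.7% on cellobiose. Its L-rhamnose libraries lay above all others. The fitted log2 fold change against cellobiose was 0.86 ± 0.24 (SE, edgeR adjusted p = 0.0442). That call was lost without L-rhamnose replicate 1 (edgeR adjusted p = 0.166), L-rhamnose replicate 2 (0.164), cellobiose replicate 1 (0.104) or cellobiose replicate 2 (0.239), and in limma on log2(FPKM + 1) or log2(FPKM + 0.1) (0.0577 and 0.06). The comparison with xylose did not pass (log2 fold change 0.48 ± 0.24, adjusted p = 0.164). The other models of this group, 3, 55, 20 and 49, are described below with the comparisons in which they changed.

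Growth on L-rhamnose was set against growth on xylose, and this comparison moved the most models of the scaffold. In edgeR's quasi-likelihood test with all 6 libraries, adjusted over the 12667 genes tested, 22 of the 53 models (41.5%) were lower on L-rhamnose and 4 (7.55%) higher, against 15.6% and 15.9% of all genes tested (31.5% in either direction). All 22 lower models fell at least 2-fold by the fitted value. The share of all lower genes that did so was not counted. The median log2 fold change of the 53 models was -0.59, against 0.01 over all genes tested, and 36 models had a negative and 17 a positive value. Over all 58 models the lower ones made up 37.9%. The lower models include the 5 that reached 10 counts in no L-rhamnose library (8, 9, 17, 32 and 37), which could meet the count rule only through the other sugars. In RNA from whole mycelium, less transcript in every hypha and fewer hyphae with the transcript cannot be told apart.

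The count rested on both L-rhamnose libraries. Without L-rhamnose replicate 1 it was 5 lower models (9.43%, against 2.05% of all genes tested) and 2 higher (3.77%, against 3.85%). Without replicate 2 it was 6 lower (11.3%, against 3.29%) and 3 higher (5.66%, against 5.78%). These fits take the single remaining library to be as variable as the other sugars. The median of the 53 models was -0.62 and -0.72 there.

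The largest differences belonged to models close to the left end and to the middle. Model 3 (gene_12635), at 5757 to 6720 on the minus strand with 5 exons and a coding length of 419 bases, stood at 4.80 and 6.81 FPKM on L-rhamnose, 999 and 405 on xylose, and 106 and 267 on cellobiose. Every L-rhamnose value lay far under every other, while replicates on xylose and on cellobiose differed more than 2-fold. The fitted log2 ratio of L-rhamnose to xylose was -7.05 ± 0.72 (edgeR adjusted p = 0.00197), and it stayed past the threshold when any 1 library was left out, with values from -7.57 to -6.24.

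Model 8 (gene_12641), at 18939 to 20480 on the plus strand with 2 exons, had 5 and 8 counts on L-rhamnose, 609 and 715 on xylose, and 63 and 297 on cellobiose. In FPKM these are 0.45 and 0.69 on L-rhamnose, 49.99 and 59.7 on xylose, and 5.24 and 25.0 on cellobiose. Xylose was high in both libraries, L-rhamnose under 10 counts, and cellobiose between them with replicates far apart. On the log2 scale L-rhamnose stood at -6.69 ± 0.84 relative to xylose (edgeR adjusted p = 0.00323), from -7.05 to -6.41 without 1 library and past the threshold each time. Model 32, at 72756 to 74596 on the minus strand, followed the same order, with 0.67 and 0.53 FPKM on L-rhamnose, 28.4 and 34.4 on xylose, and 1.53 and 11.1 on cellobiose. Here the log2 ratio to xylose came to -5.83 ± 0.91 (edgeR adjusted p = 0.00601), but the call was lost without L-rhamnose replicate 1 (0.0649) or 2 (0.0597).

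**Figure D2:**
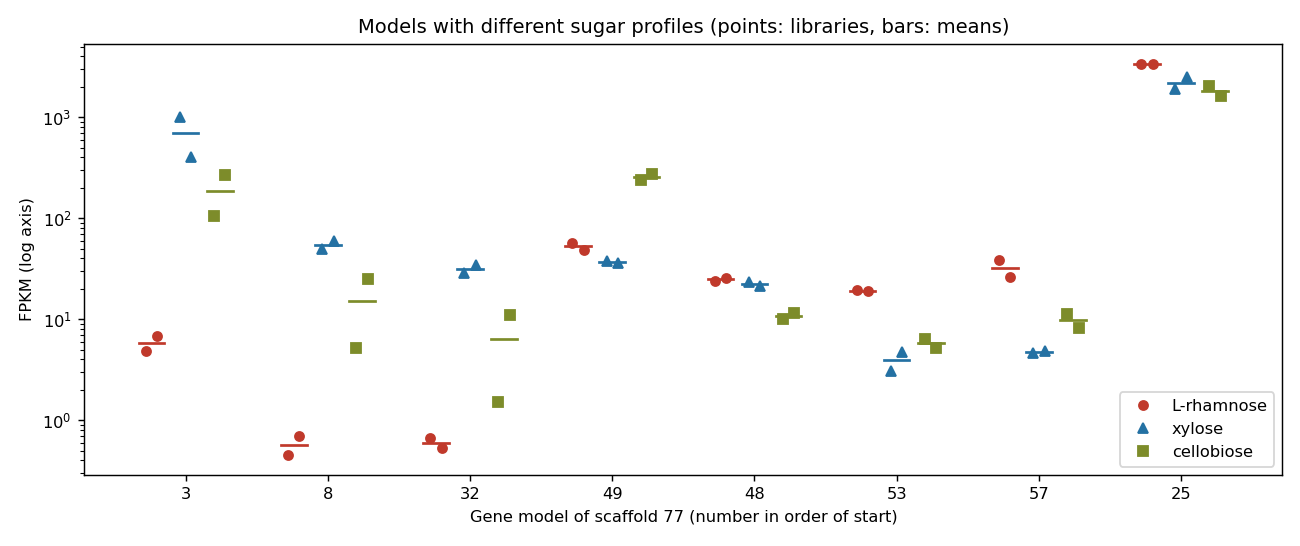
FPKM on a log axis of 8 models with different sugar profiles, numbered in order of start, with a point for each library and a bar at the mean of 2 (circles L-rhamnose, triangles xylose, squares cellobiose). Models 3, 8 and 32 are lowest on L-rhamnose, model 49 is highest and its neighbour 48 lowest on cellobiose, and models 53, 57 and 25 are highest on L-rhamnose.

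Lower models were not spread evenly along the scaffold. Counted in steps of 25000 bases from the left end, they numbered 6 of 9, 6 of 10, 3 of 9, 3 of 10, 3 of 8 and 1 of 7 models. All 4 higher models started beyond 125000. The median log2 fold change was -1.66 and -1.18 in the 2 leftmost steps and 0.78 in the last. Each step holds few models and no test was made of this gradient.

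A stretch of 5 consecutive models on the minus strand, 17 to 21, was lower on L-rhamnose than on both other sugars. It runs from 44825 to 53043 with gaps of 247 to 1543 bases. Model 17, with 2 exons, stood at 1.17 and 1.47 FPKM on L-rhamnose, 17.1 and 13.4 on xylose, and 8.90 and 13.2 on cellobiose. The single-exon model 18, whose coding length of 183 bases is the shortest of the 53, stood at 28.6 and 21.97 FPKM on L-rhamnose, 132 and 98.5 on xylose, and 83.4 and 141 on cellobiose. In both models the L-rhamnose libraries lay under all 4 others, while xylose and cellobiose were close or overlapped.

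Model 19, with 6 exons, had 10.4 and 7.58 FPKM on L-rhamnose, 131 and 98.8 on xylose, and 46.7 and 107 on cellobiose. The most abundant of the stretch was model 20, one of the 5 highest models of the scaffold, with 74.6 and 65.1 FPKM on L-rhamnose, 142 and 124 on xylose, and 136 and 157 on cellobiose. Model 21, whose 5 exons span 51484 to 53043, had 2.80 and 2.37 FPKM on L-rhamnose, 18.0 and 27.2 on xylose, and 10.1 and 11.5 on cellobiose. Models 19 and 20 overlapped between xylose and cellobiose, whereas model 21 was higher in both xylose libraries than in both cellobiose libraries.

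Log2 ratios of L-rhamnose to xylose over the stretch ran from -3.82 to -1.07 with a median of -3.26, and the edgeR adjusted p ranged from 0.00156 to 0.0073. The smallest change was that of the abundant model 20, at -1.07 ± 0.18, and the largest that of model 19, at -3.82 ± 0.44. Models 17, 19 and 21 passed in every fit without 1 library. Models 18 and 20 did not pass without L-rhamnose replicate 1 (edgeR adjusted p = 0.0503 and 0.056) or replicate 2 (0.052 and 0.0602). The next models on each side, 16 on the left and 23 on the right among those tested, did not pass in any comparison, with log2 ratios of L-rhamnose to xylose of -0.59 ± 0.44 and -0.45 ± 0.3 (edgeR adjusted p = 0.33 and 0.28). Model 16 had only 9 to 20 counts per library, so its value is imprecise. Models 14 and 15, to its left, were lower on L-rhamnose than on xylose.

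**Figure D3:**
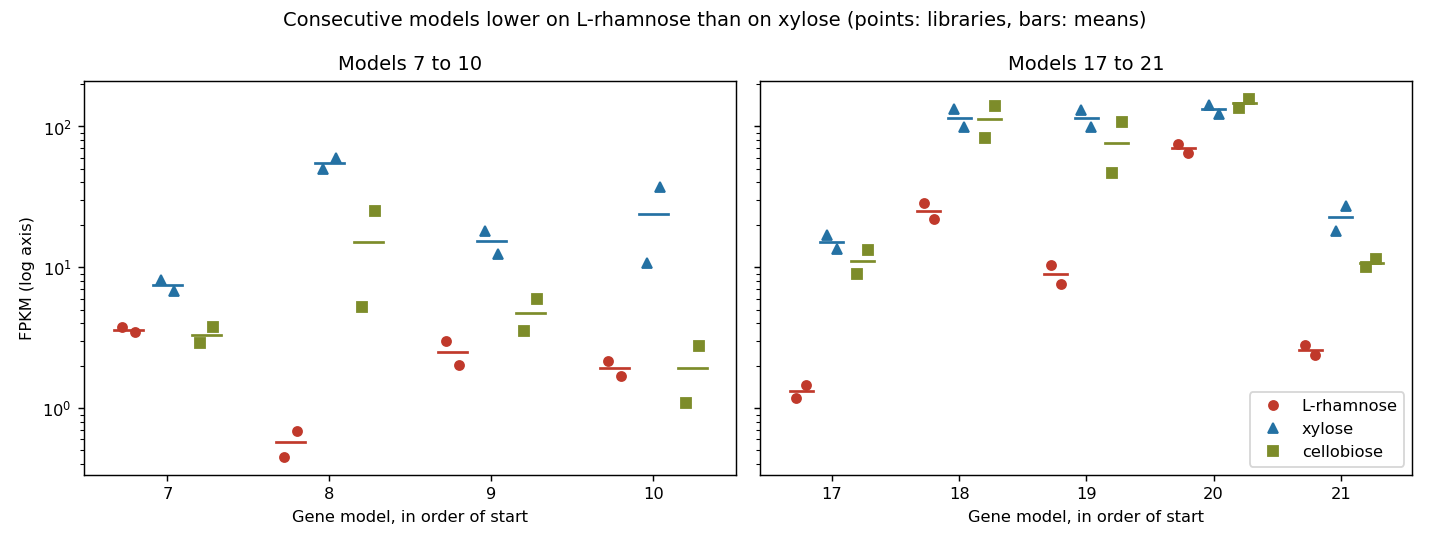
FPKM on a log axis of models 7 to 10 (left) and 17 to 21 (right), with a point for each library and a bar at the mean of 2 (circles L-rhamnose, triangles xylose, squares cellobiose). L-rhamnose lies under xylose in all 9 models, and cellobiose lies near L-rhamnose in models 7 and 10 but near xylose in models 18 and 20.

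Another stretch, models 7 to 10 between 14253 and 26181, also fell below xylose on L-rhamnose. The median log2 ratio was -3.26, with edgeR adjusted p from 0.00323 to 0.0143. Model 8 has been given above. Model 7, with 12 exons, had 3.75 and 3.47 FPKM on L-rhamnose, 8.13 and 6.82 on xylose, and 2.90 and 3.74 on cellobiose. Model 9, with 2 exons and a coding length of 345 bases, had 2.98 and 2.01 FPKM on L-rhamnose, 18.1 and 12.5 on xylose, and 3.50 and 5.91 on cellobiose. Here the xylose libraries stood apart, and cellobiose lay near L-rhamnose.

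Model 10 (gene_12643), on the minus strand with 12 exons, had 2.15 and 1.68 FPKM on L-rhamnose, 10.7 and 37.4 on xylose, and 1.08 and 2.75 on cellobiose. The xylose replicates differed by more than 3-fold and both lay above the other 4 libraries. Relative to xylose, L-rhamnose gave a log2 ratio of -3.78 ± 0.67 (edgeR adjusted p = 0.00855), which ran from -4.42 without xylose replicate 1 to -2.64 without xylose replicate 2. Without L-rhamnose replicate 1 or 2, model 8 alone of this stretch passed, and the highest adjusted p of the 4 was 0.0852 and 0.0844. Across this stretch strands changed, with models 7 to 9 on the plus and model 10 on the minus strand, and the gaps were 826 to 1472 bases.

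Lower models also came in 3 pairs of neighbours. Models 2 and 3 converge with 79 bases between their spans, and model 2 had 9.96 and 9.28 FPKM on L-rhamnose, 34.1 and 20.7 on xylose, and 13.7 and 22.8 on cellobiose, a far smaller difference than that of model 3 (log2 ratio of L-rhamnose to xylose -1.66 ± 0.35, edgeR adjusted p = 0.0145). Models 14 and 15 had log2 fold changes of -1.29 and -2.03 in this comparison, and models 44 and 45 of -1.19 and -1.23. Without L-rhamnose replicate 1 the calls of models 2, 14, 15, 44 and 45 were all lost, and without replicate 2 those of models 2, 14, 15 and 44 (highest edgeR adjusted p in any fit without 1 library 0.0933, 0.2, 0.112, 0.133 and 0.0756). Model 14 was near the threshold with all libraries (edgeR adjusted p = 0.0476) and was also lost without xylose replicate 2 (0.188), cellobiose replicate 1 (0.0543) or cellobiose replicate 2 (0.055). With all libraries kept, it was lost with library size only (0.0703), in DESeq2 (0.0543), with genes of any count (0.0501), with only these 2 sugars (0.051), with only whole-count genes (0.0509) and in limma on log2(FPKM + 1) or log2(FPKM + 0.1) (0.131 and 0.145).

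Of the 22 lower models, 15 lie on the minus strand, against 11 of the 27 models that did not pass. Their median coding length was 1132 bases, against 1050, and 4 of 22 had a single exon, against 2 of 27. Their median level was 7.39 FPKM on L-rhamnose, 41.2 on xylose and 21.2 on cellobiose, so cellobiose lay between the other sugars. For the 27 models that did not pass these medians were 13.5, 11.3 and 9.38 FPKM in the same order. These are descriptions of groups formed by the test itself.

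Models higher on L-rhamnose than on xylose formed 2 pairs at the right end. Model 53 (gene_12704), at 129534 to 132097 on the minus strand with 4 exons and a coding length of 2400 bases, had 19.3 and 19.0 FPKM on L-rhamnose, 3.06 and 4.75 on xylose, and 6.41 and 5.15 on cellobiose. It was higher on L-rhamnose by 2.15 ± 0.26 on the log2 scale against xylose (edgeR adjusted p = 0.00287, past the threshold without any 1 library) and 1.71 ± 0.25 against cellobiose (0.00794). The neighbouring model 54, the longest of the scaffold with 18 exons, had 24.7 and 21.4 FPKM on L-rhamnose, 11.2 and 13.1 on xylose, and 19.9 and 14.4 on cellobiose. Model 54 exceeded its xylose level by 0.78 ± 0.2 on the log2 scale (edgeR adjusted p = 0.0279), a call lost without L-rhamnose replicate 1 (0.137) or 2 (0.0881) or xylose replicate 1 (0.0907).

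Model 57 (gene_12710), at 145285 to 147289 on the minus strand with 6 exons, had 38.4 and 26.0 FPKM on L-rhamnose, 4.66 and 4.87 on xylose, and 11.3 and 8.20 on cellobiose. The last model, 58, at 148803 to 149989 on the plus strand, had 17.1 and 12.1 FPKM on L-rhamnose, 4.08 and 4.90 on xylose, and 5.24 and 4.29 on cellobiose. In both models the L-rhamnose libraries lay above all others. Both share reads with similar genes, so these levels may hold reads of another copy. The log2 fold change of model 57 against xylose was 2.62 ± 0.28 (edgeR adjusted p = 0.00222), and that of model 58 passed as well (adjusted p = 0.00918) except without L-rhamnose replicate 1 (0.0674).

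Between these pairs model 55, at 138900 to 140772 on the minus strand and the third highest by mean level, went the other way. It had 208 and 174 FPKM on L-rhamnose, 358 and 336 on xylose, and 278 and 366 on cellobiose. It was lower on L-rhamnose than on xylose (log2 ratio -1.01 ± 0.22, edgeR adjusted p = 0.0149), lost without L-rhamnose replicate 1 (0.0767) or 2 (0.101). The spans of models 54 and 55 are 294 bases apart and both are read from the minus strand, so neighbours in the same orientation had opposite calls.

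**Figure D4:**
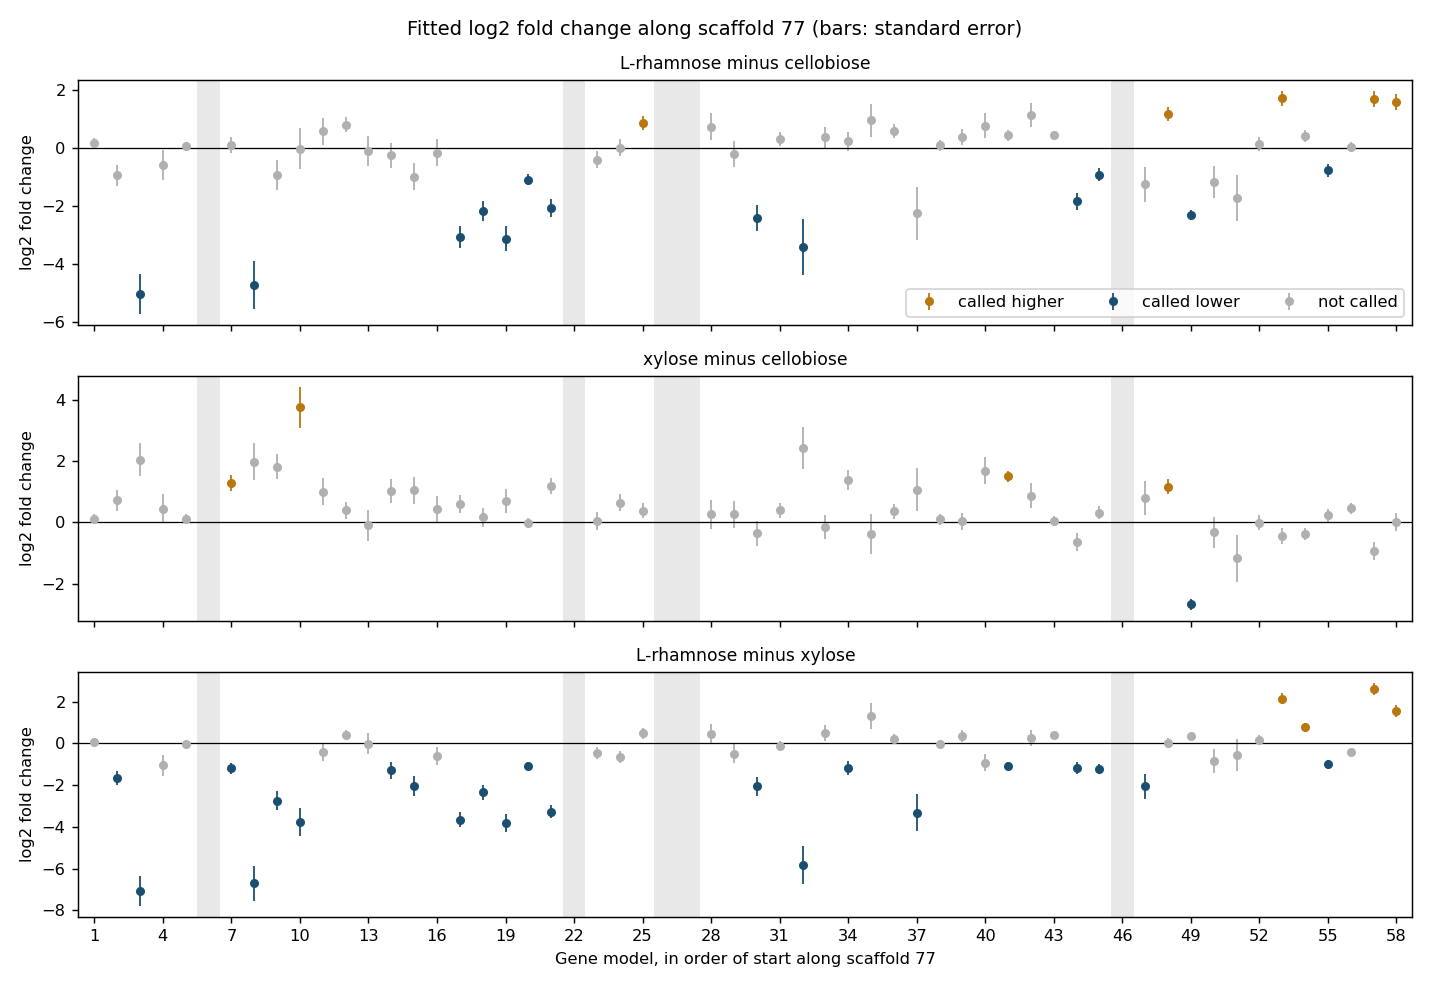
Fitted log2 fold change of the 53 models in order of start for the 3 comparisons, with bars of 1 standard error (edgeR, all 6 libraries, orange called higher, blue called lower, grey not called). Blue points of L-rhamnose minus xylose are densest on the left, its 4 orange points lie at models 53 to 58, and 5 points of xylose minus cellobiose are called.

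L-rhamnose was also compared with cellobiose, and this comparison shares the L-rhamnose libraries with the one above. In edgeR's test 13 of the 53 models (24.5%) were lower on L-rhamnose and 5 (9.43%) higher, against 11% and 11% of all genes tested (22% in either direction). Over all 58 models the lower ones made up 22.4%. They include models 8, 17 and 32, which reached 10 counts in no L-rhamnose library and could meet the count rule only through the other sugars. The median log2 fold change of the 53 was -0.02, against -0.003 over all genes tested, with 27 models negative and 26 positive. Of the 13 lower models, 12 were lower than on xylose too, and the other one was model 49. How many of all genes tested were lower in both comparisons was not counted, so this overlap has no background beside it. Leaving out L-rhamnose replicate 1 or 2 left 1 lower model each time (1.89%, against 0.295% and 0.401% of all genes tested), and without cellobiose replicate 2 they numbered 5 (9.43%, against 1.22%). Higher models numbered 0 in edgeR without L-rhamnose replicate 1 (against 0.86% of all genes tested, with 6 at an unadjusted p under 0.05) and 1 (1.89%, against 1.12%) without L-rhamnose replicate 2. They numbered 3 (5.66%, against 4.17%) without cellobiose replicate 1 and 0 (against 1.25%, with 5 at an unadjusted p under 0.05) without cellobiose replicate 2. The median of the 53 ran from -0.08 to 0.13 in the fits without 1 library.

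Models 3 and 8 had the largest log2 fold changes between L-rhamnose and cellobiose, at -5.01 ± 0.68 and -4.72 ± 0.83 (edgeR adjusted p = 0.00648 and 0.0125). Their values without 1 library ran from -5.54 to -4.21 and from -5.45 to -3.19, and both calls were lost without L-rhamnose replicate 1 (0.0774 and 0.105) or 2 (0.0663 and 0.0896). Cellobiose replicates of model 8 lay far apart, at 63 and 297 counts, and its value was smallest without cellobiose replicate 2. Model 32 was near the threshold, at -3.4 ± 0.95 (edgeR adjusted p = 0.043), with 6 and 5 counts on L-rhamnose and 15 and 108 on cellobiose.

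The stretch of models 17 to 21 was lower on L-rhamnose than on cellobiose, with a median log2 ratio of -2.17, values from -3.12 to -1.09 and edgeR adjusted p from 0.00522 to 0.01. Without L-rhamnose replicate 1 or 2, 0 of the 5 models passed (lowest adjusted p 0.0657 and 0.0574), and without cellobiose replicate 2, 2 passed. Medians in these fits were -2.36, -2.03 and -1.99. Model 30, a single-exon model at 68705 to 69981 on the plus strand, had 4.14 and 5.05 FPKM on L-rhamnose, 22.3 and 12.2 on xylose, and 16.4 and 31.8 on cellobiose. Its log2 ratio of L-rhamnose to cellobiose, -2.4 ± 0.45, passed (edgeR adjusted p = 0.015) and was lost without L-rhamnose replicate 1 (0.112) or 2 (0.0914) or cellobiose replicate 2 (0.0806). Models 44, 45 and 55 were lower too, with log2 ratios of -1.83 ± 0.29, -0.92 ± 0.23 and -0.78 ± 0.22, and each of these calls was lost without either L-rhamnose library (edgeR adjusted p from 0.0736 to 0.196) or cellobiose replicate 2 (0.0523, 0.149 and 0.217). The calls of models 45 and 55 were also lost without cellobiose replicate 1 (0.076 and 0.0634), and that of model 55 in limma (0.0503 and 0.0522).

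Models 53, 57 and 58 made up most of those higher on L-rhamnose than on cellobiose, with log2 fold changes of 1.71 ± 0.25, 1.69 ± 0.27 and 1.58 ± 0.28 (edgeR adjusted p = 0.00794, 0.00938 and 0.0128). All of these were lost without L-rhamnose replicate 1 (0.0687, 0.0778 and 0.0915) or cellobiose replicate 2 (0.0664, 0.0723 and 0.091), and models 53 and 58 also without L-rhamnose replicate 2 (0.0645 and 0.0607). The remaining higher models were 25 and 48.

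Xylose minus cellobiose had the fewest calls on the scaffold, as it had over all genes tested. In edgeR's test 4 of the 53 models (7.55%) were higher on xylose and 1 (1.89%) lower, against 1.66% and 2.55% of all genes tested (4.21% in either direction). The median log2 fold change was 0.38, against 0.006 over all genes tested, and 40 of the 53 models had a positive value. That median was 0.17 without xylose replicate 1 and 0.23 without cellobiose replicate 1. The 4 higher models became 1 (1.89%) without L-rhamnose replicate 1 or 2, where 0.465% and 0.455% of all genes tested were higher. Without xylose replicate 2 they became 9 of 53 (against 4.18% of all genes tested) and the 1 lower model became 2 (3.77%, against 3.77%). Without cellobiose replicate 1, 0 models were higher in edgeR's test, against 0.2% of all genes tested, and 11 had an unadjusted p under 0.05.

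Model 49 (gene_12700), at 115849 to 117518 on the plus strand with 7 exons, was the lower one. It had 56.4 and 48.7 FPKM on L-rhamnose, 37.9 and 36.4 on xylose, and 239 and 274 on cellobiose. Cellobiose stood well above both monosaccharides, and replicates were close. The log2 fold change was -2.67 ± 0.18 between xylose and cellobiose and -2.31 ± 0.18 between L-rhamnose and cellobiose (edgeR adjusted p = 0.0012 and 0.00139), and both calls held without any 1 library.

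Model 48, at 114954 to 115757, ends 91 bases before model 49 on the same strand and had the opposite profile. It stood at 23.8 and 25.7 FPKM on L-rhamnose, 23.2 and 21.3 on xylose, and 10.02 and 11.6 on cellobiose. L-rhamnose and xylose were close (log2 fold change 0.01 ± 0.23, edgeR adjusted p = 0.972), and both monosaccharides lay well above cellobiose. Its log2 fold changes against cellobiose were 1.17 ± 0.24 on L-rhamnose and 1.16 ± 0.24 on xylose (edgeR adjusted p = 0.0197 and 0.0484). The L-rhamnose call was lost without any 1 library of L-rhamnose or cellobiose (0.0912 to 0.106), and the xylose call without any library other than xylose replicate 2 (0.0999 to 0.286). The xylose call was also lost with library size only (0.0649), with genes of any count (0.0503), with only these 2 sugars (0.12) and with only whole-count genes (0.0522).

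Among the other models higher on xylose, model 41 (gene_12689), at 96148 to 97932 on the plus strand with 3 exons, had 56.9 and 60.2 FPKM on L-rhamnose, 125 and 97.7 on xylose, and 41.6 and 43.9 on cellobiose. Both xylose libraries lay above the other 4. It was higher on xylose than on cellobiose by 1.5 ± 0.19 on the log2 scale (edgeR adjusted p = 0.00961), a call lost without cellobiose replicate 1 (0.0777) or 2 (0.0576). Model 10 was higher on xylose by 3.76 ± 0.67 on the log2 scale (edgeR adjusted p = 0.0271). This value was 2.6 without xylose replicate 2 and 4.57 without cellobiose replicate 2, and the call was lost without any 1 library of L-rhamnose or cellobiose (0.0781 to 0.181). Model 7 was higher by 1.29 ± 0.25 (adjusted p = 0.0393), a call kept without xylose replicate 2 and lost without any other library (edgeR adjusted p from 0.0754 to 0.247). With all libraries kept, the call of model 7 was lost with library size only (0.0511), with only these 2 sugars (0.107) and in limma (0.0765 and 0.0885), and that of model 10 with only these 2 sugars (0.0963). Model 3, at 999 and 405 FPKM on xylose against 106 and 267 on cellobiose, did not pass (log2 fold change 2.04 ± 0.54, edgeR adjusted p = 0.0909), and its value ran from 1.22 to 2.85 in the fits without 1 library. It passed without xylose replicate 2 (2.54, edgeR adjusted p = 0.00691), and the highest adjusted p of these fits was 0.376.

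Replicates of cellobiose and of xylose differed in opposite directions among the models lower on L-rhamnose than on xylose. Of the 22 models lower on L-rhamnose than on xylose, 22 had a higher CPM (a count scaled by library depth with TMM factors) in cellobiose replicate 2 than in replicate 1, and 7 of these by at least 2-fold. Among all 1974 genes lower in that comparison, 73.4% were higher in cellobiose replicate 2, against 49% of all genes tested. The median log2 difference between these replicates was 0.73 for the 22 models and 0.18 for the 1974 genes. In xylose replicate 2, 7 of the 22 models and 33.2% of the 1974 genes were higher than in replicate 1, against 50.1% of all genes tested, with median log2 differences of -0.36 and -0.14. Xylose libraries entered the comparison that chose these genes, so their values are a description. The comparison that chose the 22 models used no cellobiose library for the contrast itself, although all 6 entered the estimate of spread.

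Across the 53 models, the cellobiose replicate difference ran against the difference between L-rhamnose and xylose in log2(CPM + 0.5), with Pearson's r = -0.761 and Spearman's rho = -0.695, against -0.356 and -0.316 across the 12667 genes tested. Models share their libraries and neighbours may move together, so these are descriptions over genes and not over samples. Model 32 had the largest such difference, at 2.57, and model 8 followed at 2.19. Cellobiose replicates were at least 2-fold apart in 8 of the 53 models (15.1%, against 3.82% of all genes tested), xylose replicates in 10 (18.9%, against 8.65%) and L-rhamnose replicates in 1 (1.89%, against 2.17%).

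**Figure D5:**
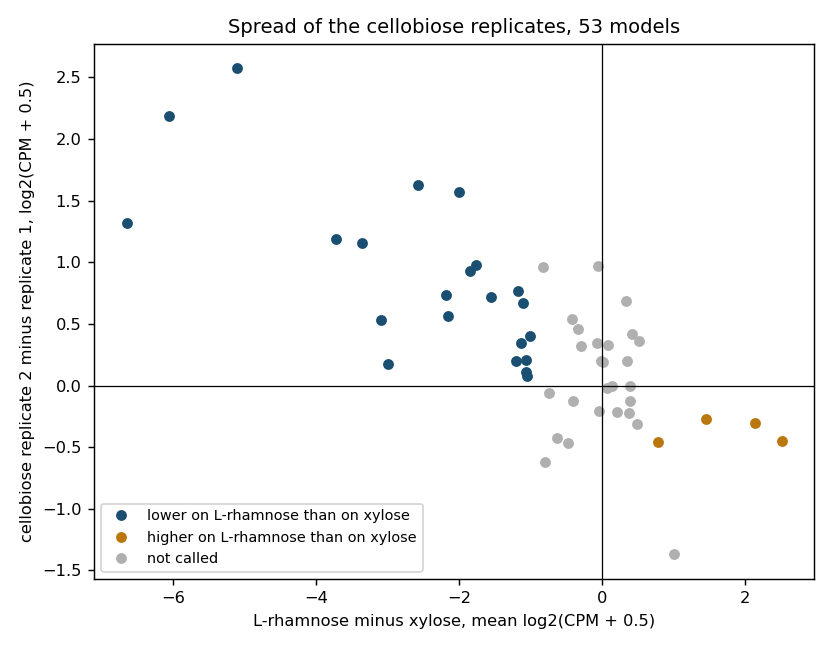
Each point is 1 of the 53 models, with the mean log2(CPM + 0.5) difference of L-rhamnose minus xylose on the x axis and cellobiose replicate 2 minus replicate 1 on the y axis (blue lower, orange higher on L-rhamnose than on xylose, grey not called). All 22 blue points lie above 0 and all 4 orange points below 0, and the correlation over the 53 points is -0.761.

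Xylose replicates were the farthest apart for model 51, at 120396 to 122176 on the plus strand. It had 36.5 and 21.7 FPKM on L-rhamnose, 8.22 and 68.9 on xylose, and 83.1 and 104 on cellobiose. The xylose values thus lay on both sides of L-rhamnose, and no comparison of this model passed (edgeR adjusted p = 0.155 for L-rhamnose and 0.455 for xylose against cellobiose, and 0.616 for L-rhamnose against xylose). The direction depended on which xylose library was kept. The log2 fold change of L-rhamnose against xylose was -1.38 without xylose replicate 1 and 1.65 without xylose replicate 2 (edgeR adjusted p = 0.013 and 0.00875). Without xylose replicate 2, xylose was also lower than cellobiose (log2 fold change -3.38, edgeR adjusted p = 0.000938). L-rhamnose was lower than cellobiose, with log2 fold changes of -1.72 and -1.73, without xylose replicates 1 and 2 (0.00171 and 0.0018), although these fits keep every library of both sugars.

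Of the 53 models, 24 passed in no comparison. The share of all genes tested that passed in none was not counted, so this number has no background beside it. By comparison, 22% of all genes tested passed for L-rhamnose minus cellobiose, 4.21% for xylose minus cellobiose and 31.5% for L-rhamnose minus xylose. The steadiest with at least 10 CPM were models 5, 38 and 1. Model 5, at 8077 to 10305 on the plus strand with 8 exons, averaged 72.8 ± 1.28 FPKM on L-rhamnose, 68.1 ± 1.22 on xylose and 69.1 ± 7.0 on cellobiose (SD, n = 2 each). Model 38 averaged 35.1 ± 1.32 FPKM on L-rhamnose, 32.2 ± 1.21 on xylose and 32.6 ± 3.22 on cellobiose. Model 1 averaged 92.0 ± 5.33 FPKM on L-rhamnose, 80.0 ± 7.71 on xylose and 80.8 ± 0.93 on cellobiose. Their log2 fold changes lay between -0.05 and 0.17 in the 3 comparisons, and models 1 and 5 lie on each side of the steeply varying model 3. A value that misses the threshold does not show equal levels.

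Just inside the count rule lay models 35, 16 and 4, with 75, 87 and 96 counts summed over the 6 libraries. The 5 models outside it were 26, 27, 6, 22 and 46, with 39, 38, 29, 17 and 12 counts. Model 6, at 10623 to 12064, had 1 and 1 counts on L-rhamnose, 9 and 11 on xylose, and 4 and 3 on cellobiose, and none of the 5 entered the test.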

How the data were processed

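Per the submitters' processing notes, Bowtie2, HISAT and RSEM were used; tool versions, genome build and strand setting: not given in the sources used here. For each library the authors deposited an RSEM expected count and an FPKM per gene; genes without reads are left out and were taken as 0. Deposited lengths equal coding lengths in 100.0% of entries, so the counts leave out UTRs. After rounding, the counts went through glmQLFit and glmQLFTest of edgeR 4.0.16 (R 4.3.3), with TMM factors and filterByExpr. All 6 libraries were in one fit with no covariate. Of 14466 genes with a count, 12667 were tested, with 7306517 to 8126006 counts per library and a common biological coefficient of variation of 0.2183. A gene was called at a Benjamini-Hochberg adjusted p under 0.05 over all genes tested. Standard errors are the log2 fold change over the square root of F. The fits were run on simulated counts with the same dispersion for every gene and changes on L-rhamnose alone. Spread between the real replicates differed by sugar, so that run does not show how stable the calls here are.

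Models named are the 5 most abundant, up to 6 per comparison and direction by fold change with non-overlapping libraries and at least 10 CPM, members of runs of at least 2, the 3 steadiest and those at the edge of the count rule. Models 37 and 51 and the models beside the stretches were added after their values were seen, and identifiers are printed for at most 2 models per comparison and direction. The members, rules and alternatives were chosen with earlier results of these data known. DESeq2 1.42.0, limma 3.58.1 on log2(FPKM + 1 or 0.1), other scalings and filters, and fits without 1 library were the alternatives. A RefSeq table of another strain, with 12497 genes, matched 0 identifiers and was not used.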

Additional observations from a re-analysis of the deposited data

How the results depend on the processing

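Counts of models lower on L-rhamnose than on xylose (22) or cellobiose (13) stayed within 1.5 times in every alternative that kept all libraries, at 19 to 22 and 10 to 16. Of all genes tested, 10.2% to 17.5% and 5.86% to 14.3% were lower in these alternatives. Models higher on L-rhamnose numbered 3 against cellobiose (5 with all genes; 10.8% of genes tested) and 2 against xylose (4; 15.7%) when only genes with whole counts were tested, which removes models 57 and 58. The 4 models higher on xylose than on cellobiose became 2 (against 1.33% of all genes tested) with library size only (with 1 lower, and a median of -0.117 over all genes tested), 11 (4.47%) with DESeq2, 1 (0.491%) in a fit of only the 2 sugars and 2 (1.12%) with the replicate block, where the share of all genes was 1.66% without these changes. The cause was not tested. Without 1 library the counts for L-rhamnose minus cellobiose ranged from 0 to 6 (higher) and 1 to 17 (lower). Of all genes tested, 0.86% to 14.0% and 0.295% to 15.4% were called there. For xylose minus cellobiose the counts were 0 to 9 and 1 to 2, against 0.2% to 4.18% and 0.938% to 3.77%. For L-rhamnose minus xylose they were 2 to 6 and 5 to 23, against 3.85% to 15.2% and 2.05% to 16.5%. The shares of all genes tested thus also moved widely between the fits without 1 library. Of 43 named calls, 9 held in all 6 of these fits. Of 576 named values in the other alternatives, 549 kept their call, 26 lost it and 1 gained it, and 0 changed direction with a call.

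Replicate numbers do not show pairing: deviations of same-numbered libraries correlated at -0.0868, -0.2 and -0.124 between sugars. With the replicate number as a block, the fit gave 4 higher and 10 lower models for L-rhamnose minus cellobiose (6.75% and 5.86% of all genes tested), 2 and 1 for xylose minus cellobiose (1.12% and 1.82%), and 3 and 21 for L-rhamnose minus xylose (12.0% and 10.5%). Among the named calls, those not made under the block were models 25, 45 and 55 for L-rhamnose minus cellobiose (edgeR adjusted p = 0.103, 0.0657 and 0.096), 7 and 48 for xylose minus cellobiose (0.087 and 0.104), and 54 for L-rhamnose minus xylose (0.055). At 5 counts in 2 libraries 56 models would be members, at 20 counts 51, and at 10 counts in all 6 libraries 44. Below about 10 counts, as for models 8, 17 and 32 on L-rhamnose, fold changes are imprecise.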
